A study of Mus musculus with 82 samples.

Results

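The 10 genes described here belong to the natriuretic peptide and cyclic nucleotide system of the vessel wall. They encode the peptide BNP (Nppb), the 3 natriuretic peptide receptors (Npr1, Npr2, Npr3), cGMP-dependent protein kinase I (Prkg1) and 5 phosphodiesterases (Pde1a, Pde1c, Pde3a, Pde4b, Pde5a). They were taken by symbol out of the 55401 genes counted in mouse aortic vascular smooth muscle cells (aVSMC), from a list that was drawn up with earlier results of these data known.

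Natriuretic peptides bind receptors whose inner part is a guanylyl cyclase, so that binding raises cGMP in the cell. Cyclic GMP activates the kinase encoded by Prkg1, which lowers calcium and relaxes smooth muscle, and cAMP acts in the same sense through its own kinase. Phosphodiesterases end both signals by hydrolysing the cyclic nucleotide, each family with its own preference for cGMP, cAMP or both.

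Primary aVSMC were isolated from C57BL/6 mice, passaged in a medium with growth factors and kept serum-free before stimulation, so all groups are cultured cells and not vessel tissue. After 24 h, 7 groups of 6 cultures each were sequenced: control, EGF (10 µg/L), AngII (10 nM), U46619 (1 µM), the pairs EGF+AngII and EGF+U46619, and all 3 agonists together (EGF+AngII+U46619), with 1 culture of each of 6 mice in every group. EGF is a ligand of the EGF receptor, AngII is angiotensin II, and U46619 is a stable agonist of the thromboxane A2 receptor. After 48 h the cultures came in 2 batches, each with its own control and EGF cultures: the EGF/U46619 batch (culture sets B1-1 to B1-5, with U46619 and EGF+U46619) and the EGF/AngII batch (sets B2-1, B2-2, B2-4, B2-5 and B2-6, with AngII and EGF+AngII), which gave n = 10 for control and EGF and n = 5 for the other 4 groups. A culture set is the cultures that share a replicate number, and the labels give the 10 sets only 5 mouse numbers. Sets B1-1, B1-4, B2-1, B2-2 and B2-5 share mouse number 7, and sets B1-5 and B2-4 share number 10. By the labels, control and EGF thus hold 5 mice, U46619 and EGF+U46619 4, and AngII and EGF+AngII 3.

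Between 16483529 and 33916114 fragments were counted per library, and levels are given as FPM, fragments per 1000000 counted after TMM scaling. A gene was called when its FDR was under 0.05 in both edgeR and DESeq2 and its mean reached 5 FPM in at least 1 of the groups compared, among 14653 genes tested after 24 h and 15796 after 48 h. Acta2, the smooth muscle actin, was present in every library (352 to 15160 FPM after 24 h), whereas Myh11, the smooth muscle myosin, ranged from 0.149 to 276 FPM, and Tagln and Cnn1 lie on chromosomes that are listed at 0 in these files. Endothelial markers differed between the cultures: the summed level of Pecam1, Cdh5, Kdr and Tie1 in the 24 h controls was 2.46, 2.16, 55.8, 511, 323 and 1268 FPM in mice 1 to 6, with Cdh5 at 0 in every library. 1 library did not match its set: the control of set B2-4 deviated from its group mean as set B2-2 did (correlations 0.882 to 0.927) and not as the other libraries of its own set did (-0.411 to -0.182). Its Npr2 was 455 FPM against 84.5 to 96.9 FPM in the rest of set B2-4, and its Pde4b was 147 FPM against 20.9 to 22.6 FPM. The 48 h comparisons with the pooled controls rest on this library, and the values without it stand beside them.

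Sequences are shown for the peptide gene and the pair of cyclase receptors, because Nppb on the one side and Npr1 and Npr2 on the other moved in opposite directions with U46619. Each is the 250 bases before the start that RefSeq gives (GRCm38.p6), 5′ to 3′ on the strand of the gene, with matches to the searched motifs in capitals. Nppb is on the plus strand (chr4:147985650-147985899), Npr1 on the minus strand (chr3:90465867-90466116) and Npr2 on the plus strand (chr4:43631685-43631934).
Nppb: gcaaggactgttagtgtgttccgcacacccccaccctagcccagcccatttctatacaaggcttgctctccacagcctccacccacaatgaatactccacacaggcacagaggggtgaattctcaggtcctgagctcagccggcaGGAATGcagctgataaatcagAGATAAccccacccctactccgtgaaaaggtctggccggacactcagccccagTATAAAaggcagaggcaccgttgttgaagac
Npr1: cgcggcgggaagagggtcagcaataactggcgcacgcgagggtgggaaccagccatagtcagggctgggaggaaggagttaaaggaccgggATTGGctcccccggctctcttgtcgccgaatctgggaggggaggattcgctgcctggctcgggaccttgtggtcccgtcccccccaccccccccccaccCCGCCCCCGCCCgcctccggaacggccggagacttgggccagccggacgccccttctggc
Npr2: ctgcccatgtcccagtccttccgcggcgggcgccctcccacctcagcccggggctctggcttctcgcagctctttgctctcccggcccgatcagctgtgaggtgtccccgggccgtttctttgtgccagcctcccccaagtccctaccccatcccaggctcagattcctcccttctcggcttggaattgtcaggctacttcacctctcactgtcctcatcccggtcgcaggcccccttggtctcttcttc
The motifs searched on both strands were the TATA box (TATAAA), the GC box (GGGCGG), the CCAAT box (CCAAT), the M-CAT motif (CATTCC), AP-1 (TGACTCA), the short form of the cAMP response element (TGACG), the motif of the GATA family of transcription factors (AGATAA) and the CArG box. In the Nppb window the capitals mark M-CAT on the reverse strand (bases -105 to -100 from the start), GATA (-84 to -79) and a TATA box (-31 to -26). In the Npr1 window they mark a CCAAT box (-159 to -155) and a pair of adjoining GC boxes (-60 to -49), all on the reverse strand, and in the Npr2 window none of the 8 motifs was found. Of 32851 promoters of the same length, 12.4% held the TATA box, 12.6% M-CAT, 9.99% GATA, 32.7% the GC box and 33.8% the CCAAT box. The remaining motifs were held by 4.46% (AP-1), 17.8% (cAMP element) and 1.47% (CArG box) of them. The windows also differed in base composition: the G+C share was 54.8% for Nppb with 5 CpG dinucleotides, 70.4% with 21 for Npr1 and 64.4% with 13 for Npr2, against medians of 52.4% and 6 over all promoters. A motif match is a description of the letters and not a bound site. RefSeq entries were found for 9 of the 10 members, with more than 1 start for Pde1a, Pde1c, Pde4b and Prkg1. In the gene models used for exon lengths (GRCm38), Npr1 begins right after its window and so does Npr2. Nppb begins inside its window, ahead of every motif marked there, so that these motifs lie within its gene model.

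In control cultures Npr2, the receptor for the C-type peptide, had the highest mean level of the 10 genes per kb of exon at both times. After 24 h it was at 23.2 ± 10.8 FPM per kb (SD, n = 6), above Npr3 in 5 of 6 mice. Npr3, the receptor without a cyclase that clears the peptides, followed with 8.83 ± 6.94 FPM per kb and Pde3a, the phosphodiesterase inhibited by cGMP, with 5.13 ± 1.58 FPM per kb, and this pair could not be separated, since Npr3 was above Pde3a in 4 of 6 mice. Npr1, Pde5a, Pde4b, Pde1a and Prkg1 lay between 3.09 and 2.22 FPM per kb, each above the next in only 2 to 4 of 6 mice, so that their order is not beyond the spread between mice. Nppb (0.287 ± 0.366 FPM per kb) and Pde1c (0.00713 FPM per kb) were lowest. After 48 h Npr2 (43.8 ± 30.4 FPM per kb, n = 10) and Npr3 (28.6 ± 13.4 FPM per kb) again stood above the rest, with Npr3 above Pde3a in 10 of 10 cultures, but Npr2 was above Npr3 in only 5 of 10, so this pair could not be ordered.

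The spread between mice was wide for some members and narrow for others. Among the 24 h controls the highest value was 1703 times the lowest for Pde4b, 56.6 times for Npr1, 19.6 times for Pde5a, 15.1 times for Npr3 and 8.61 times for Prkg1, but only 3.57 times for Npr2, 3.10 times for Pde3a and 2.92 times for Pde1a. Of the variance of log2(FPM + 0.5) over the 42 libraries, the mouse took 97.9% for Pde4b, 88.3% for Npr1, 80.8% for Npr3, 79.6% for Pde5a, 78.5% for Prkg1, 77.6% for Pde3a and 61.5% for Npr2, but only 25.0% for Pde1a and 21.3% for Nppb, against a median of 49.8% over all genes tested. Treatment took the largest share for Nppb (46.3%), followed by Pde1a (34.0%) and Npr2 (28.8%), with a median of 15.0% over all genes. Pde4b and Npr1, which differed most between mice, were also ordered much like the summed endothelial markers, a sum carried by Pecam1 and Tie1. Pde4b, which hydrolyses cAMP, was at 0.0599, 0.257, 4.36, 29.1, 23.8 and 102 FPM in the controls of mice 1 to 6, and Npr1, the receptor for ANP and BNP, at 0.958, 2.82, 5.99, 16.4, 8.31 and 54.2 FPM. Mouse 6 was highest and mice 1 and 2 were lowest for both genes and for the endothelial sum. Kdr did not follow that order (2.04, 1.03, 47.9, 6.85, 12.5 and 12.4 FPM), and mouse 6 also stood apart in the adipocyte markers Adipoq and Plin1, with a sum of 849 FPM against 0 to 29.9 FPM in mice 1 to 5. In bulk RNA, fewer cells of a type and less RNA per cell cannot be told apart, and the part of endothelial cells or adipocytes in these levels was not tested.

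**Figure D1:**
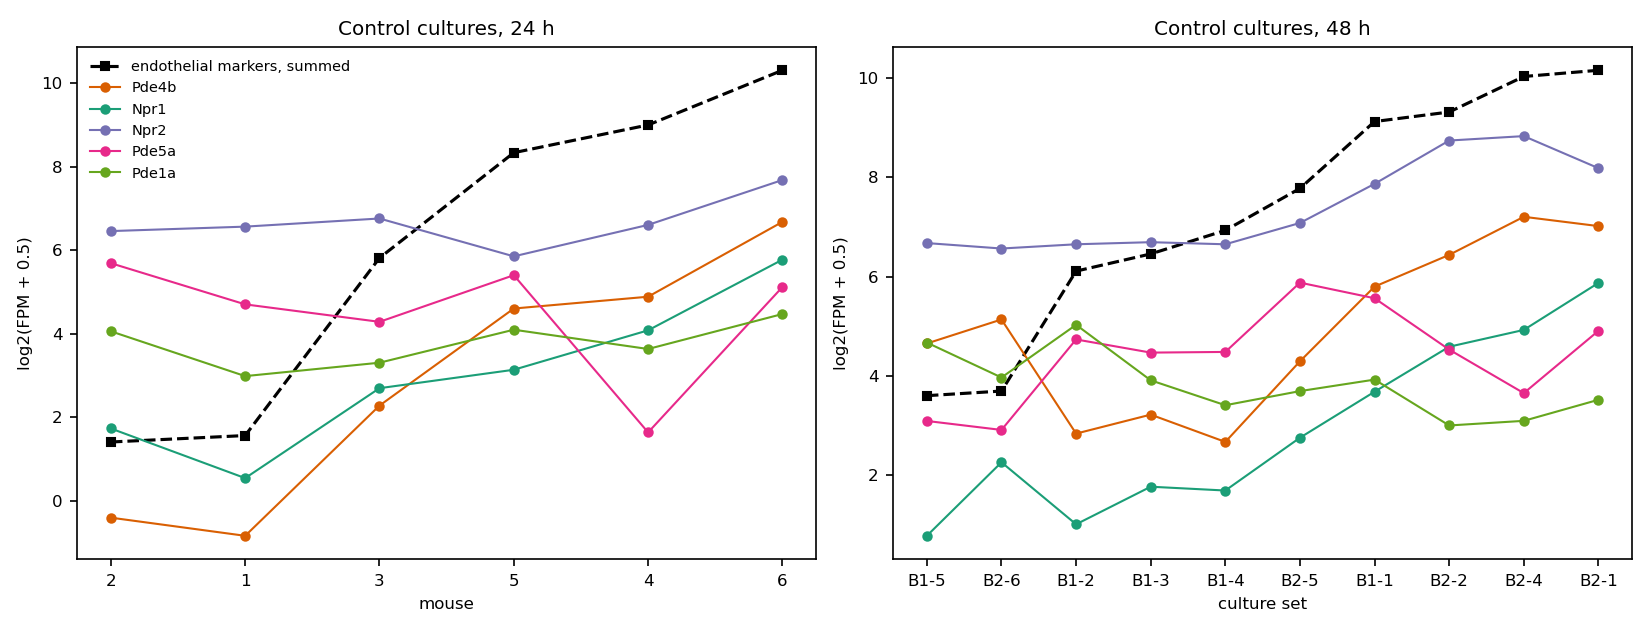
Control cultures after 24 h (left, 6 mice) and 48 h (right, 10 culture sets), ordered by the summed level of the endothelial markers (black dashed line), with log2(FPM + 0.5) of 5 members on the vertical axis and 1 point per culture. Pde4b and Npr1 are high where the endothelial sum is high after 24 h (102 and 54.2 FPM in mouse 6), whereas Pde5a and Pde1a do not follow that order.

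Incubation with U46619 for 24 h changed 4 of the 9 members tested: Nppb rose, and Npr1, Npr2 and Pde5a fell. Over all genes tested 27.6% were called in this comparison (13.5% higher and 14.1% lower), and the count of 4 of 9 members is to be read against that share. The median log2-fold change was -0.57 over the 9 members and -0.06 over all genes tested. Pde1c, a phosphodiesterase for both cyclic nucleotides, was the member not tested, since its level was at most 0.855 FPM in any 24 h library and 0 in 11 of 42. EGF+U46619 and EGF+AngII+U46619 each changed 5 of the 9 members, with Prkg1 lower as well, against backgrounds of 33.1% and 34.3%. These 3 comparisons share the 6 control cultures.

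Nppb (ENSMUSG00000029019, chr4:147985788-147987205, plus strand, 781 exon bases) encodes BNP, a peptide best known as a product of stretched heart muscle. In control cultures of mice 1 to 6 its level was 0, 0, 0.683, 0.475, 0.0913 and 0.0938 FPM, which is 0 to 13 fragments. With U46619 it was 0.116, 34.9, 1.08, 3.80, 4.13 and 2.61 FPM (2 to 634 fragments), higher than control in 6 of 6 mice, although mouse 1 stayed below the highest control. The log2-fold change was 4.33 (SE 0.88, FDR 0.000393 in edgeR and 1.65e-05 in DESeq2), or 20.1-fold, a size that rests on controls near 0. Nppb passed the minimum of 5 FPM only through the U46619 group, so it could only be called higher. The response was uneven: mouse 2 went from 0 to 34.9 FPM and mouse 3 from 0.683 to 1.08 FPM. Without mouse 2 the log2-fold change was 3.25 (FDR 0.00101 in edgeR), but the mean with U46619 was then 2.36 FPM, under the minimum of 5 FPM, so that Nppb was no longer called. Without mouse 3, the highest control, it was 5.48 (FDR 3.50e-05 in edgeR). The same held for EGF+U46619 (log2-fold change 4.13, SE 0.88, 3.13 without mouse 2) and EGF+AngII+U46619 (4.29, SE 0.88, 3.25 without mouse 2). With EGF+U46619 Nppb was higher than control in 5 of 6 mice, the exception being mouse 3 (0.552 FPM), and with all 3 agonists it was higher in 6 of 6. EGF or AngII alone left Nppb at group means of 0.222 and 0.239 FPM. The cardiomyocyte markers Myh6 and Actn2 were at or near 0 in all 24 h libraries (at most 0.101 and 0.450 FPM), while Tnnt2 was present at 3.26 to 55.0 FPM in the controls.

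The cyclase receptors Npr1 and Npr2 fell with U46619. Npr2 (ENSMUSG00000028469, chr4:43631935-43651244, plus strand, 4667 exon bases) went from a lowest, median and highest level of 57.3, 95.6 and 205 FPM in control to 34.6, 49.7 and 133 FPM with U46619. It was lower in 6 of 6 mice, and the groups overlapped only through mice that were already high or low in control. The log2-fold change was -0.88 (SE 0.17, FDR 0.000214 in edgeR and 7.28e-06 in DESeq2), a 1.84-fold lower level. With EGF+U46619 the log2-fold change was -0.91 (SE 0.17, edgeR FDR 8.43e-05), lower in 5 of 6 mice. Mouse 6 was the exception, at 205 FPM in control and 209 FPM with EGF+U46619. With all 3 agonists it was -1.17 (SE 0.17, edgeR FDR 3.24e-06), lower in 6 of 6, with mouse 6 now at 91.3 FPM. Npr2 was called in these 3 comparisons whichever mouse was left out.

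Npr1 (ENSMUSG00000027931, chr3:90450591-90465866, minus strand, 4783 exon bases) had a lowest, median and highest level of 0.958, 7.15 and 54.2 FPM in control and 0.928, 3.28 and 41.1 FPM with U46619. Each mouse was lower with U46619 than in its own control, mouse 1 only slightly (0.958 to 0.928 FPM), while the group ranges overlapped almost completely. The log2-fold change of -0.85 (SE 0.33) passed narrowly (FDR 0.0424 in edgeR and 0.0276 in DESeq2), and the call was lost when mouse 2, 3, 4, 5 or 6 was left out (-0.93 to -0.66 over the 6 omissions). With EGF+U46619 it was -0.88 (SE 0.32, edgeR FDR 0.0300), a call lost without mouse 2, 3, 4 or 5, and with all 3 agonists -1.06 (SE 0.33, edgeR FDR 0.00963), lost without mouse 3 alone. The summed endothelial level, which Npr1 follows between mice, had a median of 189.2 FPM in control. With U46619, EGF+U46619 and all 3 agonists the medians were 141, 142 and 132 FPM. Its 3 tested genes had median log2-fold changes of -0.44, -0.39 and -0.60, and 0 of them were called in these comparisons. The part of endothelial cells in the lower Npr1 level was not tested.

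Npr3 (ENSMUSG00000022206, chr15:11839896-11907287, minus strand, 9389 exon bases) was not called in any comparison of the main fits. With U46619 it was higher in 3 mice and lower in 3 (log2-fold change -0.21, SE 0.37). With all 3 agonists it was lower in 5 of 6 mice at a log2-fold change of -0.89 (SE 0.37), with an FDR of 0.0527 in edgeR and 0.0362 in DESeq2, and it was called in 4 of 15 alternatives, among them the one without mouse 1 (-1.24). EGF alone gave a difference of similar size: from 11.0, 45.1, 21.8, 165.8, 137 and 117 FPM in the controls of mice 1 to 6 to 3.04, 11.1, 5.10, 235, 73.0 and 92.8 FPM. Mice 1, 2 and 3, with the lower controls, stood furthest below control with EGF in relative terms, and mouse 4 stood above it. That difference (log2-fold change -0.95, SE 0.37) had an edgeR FDR of 0.171.

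Prkg1 (ENSMUSG00000052920, chr19:30564489-31765033, minus strand, 10861 exon bases), the kinase that cGMP activates, fell when U46619 was combined with EGF. The controls of mice 1 to 6 were at 11.7, 16.2, 5.67, 30.2, 31.7 and 48.8 FPM, and the EGF+U46619 cultures at 12.2, 6.44, 2.12, 15.1, 11.96 and 31.4 FPM. Mice 2 to 6 were lower and mouse 1 was level with its control. The log2-fold change was -1.01 (SE 0.32, FDR 0.0126 in edgeR and 0.00413 in DESeq2), and the call was lost without mouse 2 or mouse 5. With EGF+AngII+U46619 it was -1.18 (SE 0.33, edgeR FDR 0.00409), where mouse 3 reached 0.226 FPM. U46619 alone gave -0.65 (SE 0.32), lower in 5 of 6 mice, with an edgeR FDR of 0.113. The direct comparison of EGF+U46619 with U46619 did not separate them for Prkg1 (log2-fold change -0.36, SE 0.32, edgeR FDR 1.0), so that the call with EGF+U46619 does not show a larger effect than with U46619.

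**Figure D2:**
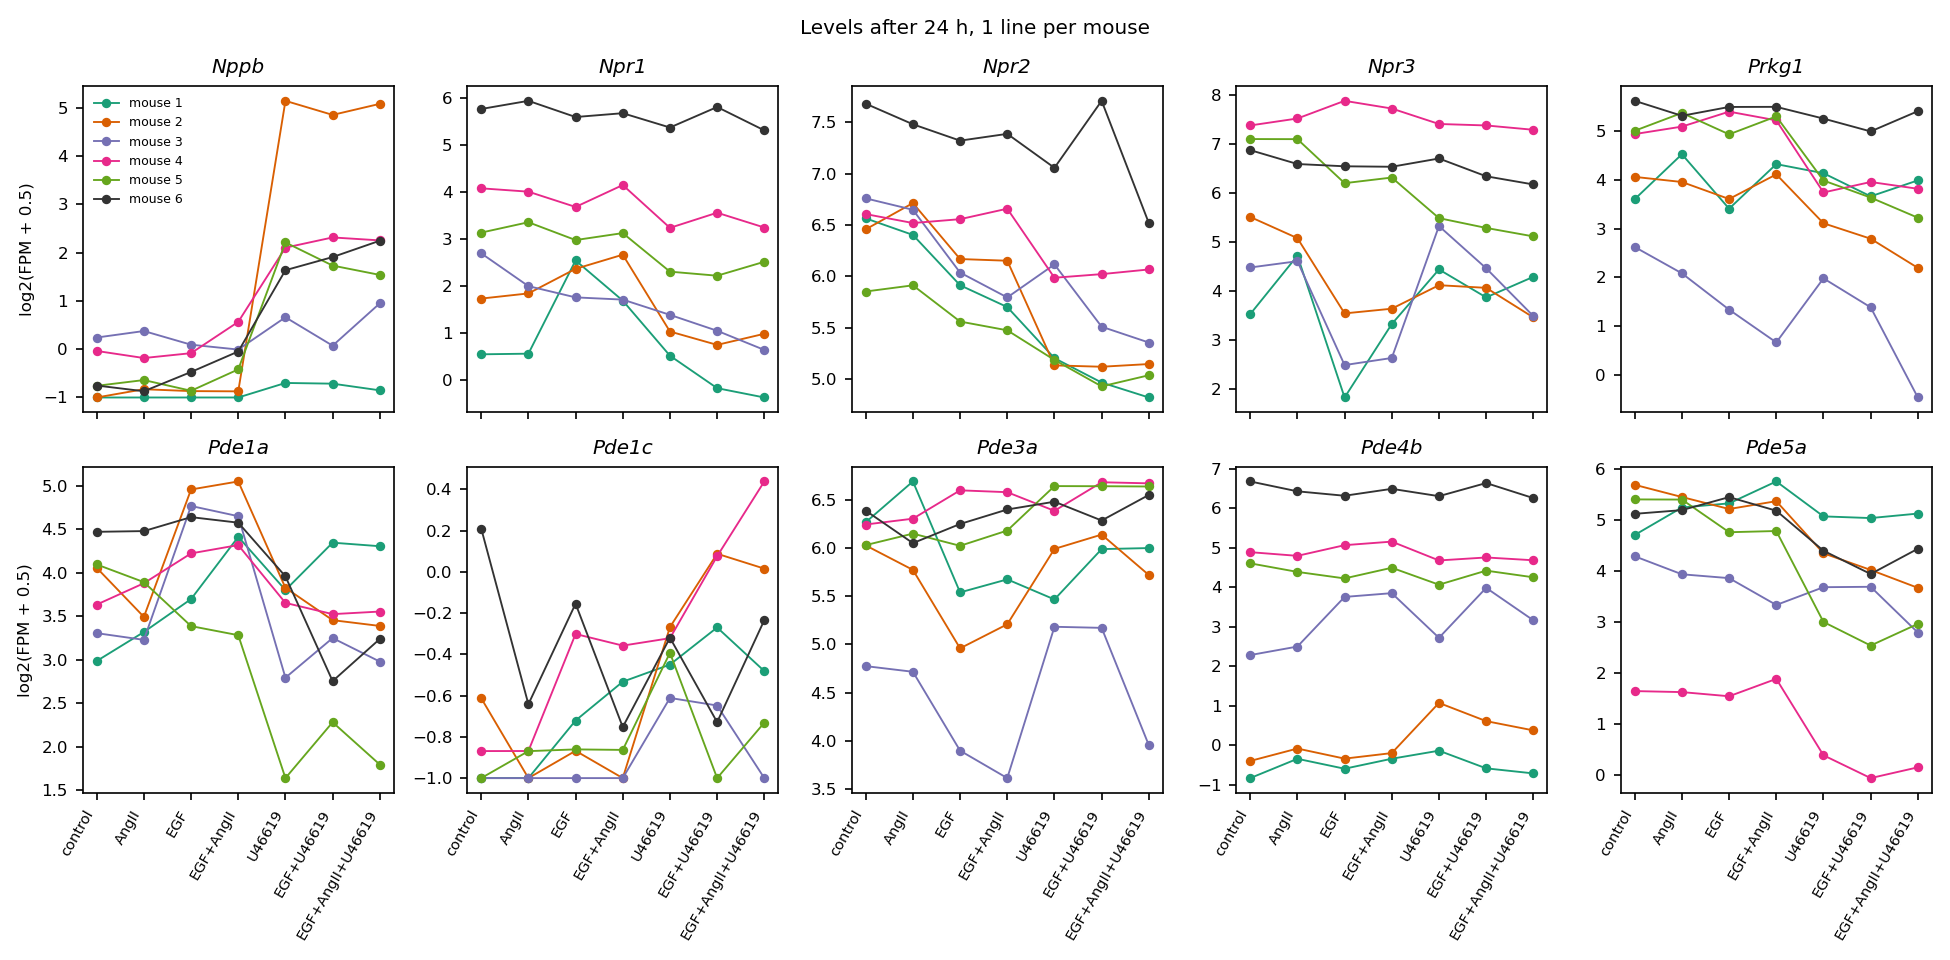
Level of each of the 10 members after 24 h as log2(FPM + 0.5), with the 7 groups on the horizontal axis and 1 line per mouse. Nppb is higher in the 3 groups with U46619 (median 3.21 FPM with U46619 alone against 0.0925 FPM in control) and Npr2 and Pde5a are lower. The lines of Pde4b lie far apart in all groups. Mouse 6 is the top line for Npr1 in all 7 groups, while the lowest Npr1 level varies (0.958 FPM in control, 2.88 FPM with EGF and 0.384 FPM with EGF+U46619).

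Pde5a (ENSMUSG00000053965, chr3:122728947-122859374, plus strand, 9831 exon bases), which hydrolyses cGMP and is the target of sildenafil, fell in all 3 groups with U46619. The controls of mice 1 to 6 were at 25.6, 51.1, 19.0, 2.62, 41.8 and 34.3 FPM, and the U46619 cultures at 33.1, 19.8, 12.3, 0.80, 7.48 and 20.5 FPM. Mouse 1 was higher with U46619 and the other 5 mice were lower, mouse 5 most of all. The log2-fold change was -1.10 (SE 0.30, FDR 0.00500 in edgeR and 0.00102 in DESeq2), a 2.14-fold lower level. With EGF+U46619 it was -1.33 (SE 0.30, edgeR FDR 0.000695) and with all 3 agonists -1.39 (SE 0.30, edgeR FDR 0.000428), lower in 5 of 6 mice in both. Pde5a was called in these 3 comparisons whichever mouse was left out. Its window before the RefSeq start (chr3:122728908-122729157) held 1 of the 8 motifs, a GC box at -82 to -77, with a G+C share of 68.4% and 22 CpG dinucleotides. In the gene models used for exon lengths Pde5a begins inside this window, so that the GC box lies within the gene model.

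The remaining phosphodiesterases were not called against control. Pde1a (ENSMUSG00000059173, chr2:79834453-80129458, minus strand, 6012 exon bases), the calcium- and calmodulin-activated enzyme, had means of 13.9 ± 5.28 FPM in control, 20.4 ± 8.23 FPM with EGF and 10.6 ± 4.92 FPM with U46619 (SD, n = 6). EGF stood above control in 5 of 6 mice (log2-fold change 0.47, SE 0.34, edgeR FDR 0.470) and EGF+U46619 below it in 5 of 6 (-0.56, SE 0.34, edgeR FDR 0.190). Mouse 1 went the other way with EGF+U46619 (7.43 to 19.9 FPM), and without it the log2-fold change was -0.96 and Pde1a was called. Pde3a (ENSMUSG00000041741, chr6:141249269-141507448, plus strand, 12737 exon bases) kept group means between 54.6 and 74.7 FPM over the 7 groups. Pde4b (ENSMUSG00000028525, chr4:102087543-102607259, plus strand, 10560 exon bases) had log2-fold changes of 0.18 (SE 0.29) with U46619 and 0.44 (SE 0.28) with EGF+U46619, higher in 3 mice and lower in 3 each time. Pde1c (ENSMUSG00000004347, chr6:56069804-56569103, minus strand, 20067 exon bases) gave at most 17 fragments in a 24 h library.

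EGF and AngII without U46619 changed none of the 9 members after 24 h. With EGF the background was 0.0273% of all genes (4 genes), a count that depended on the test. It was 397 with DESeq2's Wald test alone, 265 with edgeR's likelihood ratio test beside DESeq2 and 0 with only the groups compared. In each of these fits 0 members were called. With EGF 2 members in edgeR and 3 in DESeq2 had an unadjusted p under 0.05, as did 17.7% of all genes in edgeR. One of them was Npr2, lower in 6 of 6 mice (59.8, 71.5, 65.2, 93.7, 46.7 and 160 FPM in mice 1 to 6 with EGF) at a log2-fold change of -0.41 (SE 0.17, edgeR FDR 0.184). With AngII the background was 0% and 0 members reached an unadjusted p under 0.05 in either tool. With EGF+AngII the background was 3.11%, 0 members were called by either tool and 2 had an unadjusted p under 0.05 in each, as did 24.7% of all genes in edgeR. Npr2 was again among them (log2-fold change -0.47, SE 0.17, edgeR FDR 0.0862, lower in 5 of 6 mice).

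Direct comparisons asked what U46619 changed in cells that also received EGF. EGF+U46619 against EGF changed 6 of the 9 members against a background of 13.2%: Nppb was higher (log2-fold change 4.12, SE 0.87), and Npr1 (-1.13, SE 0.33), Npr2 (-0.51, SE 0.17), Pde1a (-1.03, SE 0.34) and Pde5a (-1.13, SE 0.30) were lower. The sixth was Pde3a, higher in 6 of 6 mice at a log2-fold change of 0.60 (SE 0.20, FDR 0.0379 in edgeR and 0.0241 in DESeq2), from a median of 55.3 FPM with EGF to 73.8 FPM with EGF+U46619. Pde1a was lower in 5 of 6 mice and Pde5a in 6 of 6. Pde1a had a median of 21.3 FPM with EGF and 9.75 FPM with EGF+U46619, and mouse 1 was again its exception. EGF+AngII+U46619 against EGF+AngII also changed 6 members (background 20.4%), here Nppb (3.48, SE 0.81) upwards and Npr1 (-1.24, SE 0.33), Npr2 (-0.71, SE 0.17), Prkg1 (-1.09, SE 0.32), Pde1a (-1.16, SE 0.34) and Pde5a (-1.24, SE 0.30) downwards, and these last 5 were lower in 6 of 6 mice. U46619 against EGF changed 4 members (background 11.2%): Nppb was higher, and Npr1 (-1.11, SE 0.33), Pde1a (-1.04, SE 0.34) and Pde5a (-0.89, SE 0.30) were lower. Pde1a was thus called against EGF in both comparisons with U46619, but not against control.

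Adding EGF to U46619, AngII to EGF or AngII to EGF+U46619 changed 0 of 9 members after 24 h, and so did the interactions of EGF with U46619 and of EGF with AngII. In each of these 5 comparisons 0 members had an unadjusted p under 0.05 in either tool, and the background was 0% in all of them. For Nppb the difference between EGF+U46619 and U46619 was -0.19 on the log2 scale, with an SE of 0.65 that is the widest among the members called with U46619. For Npr2 it was -0.04 (SE 0.17) and for Pde5a -0.24 (SE 0.30).

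**Figure D3:**
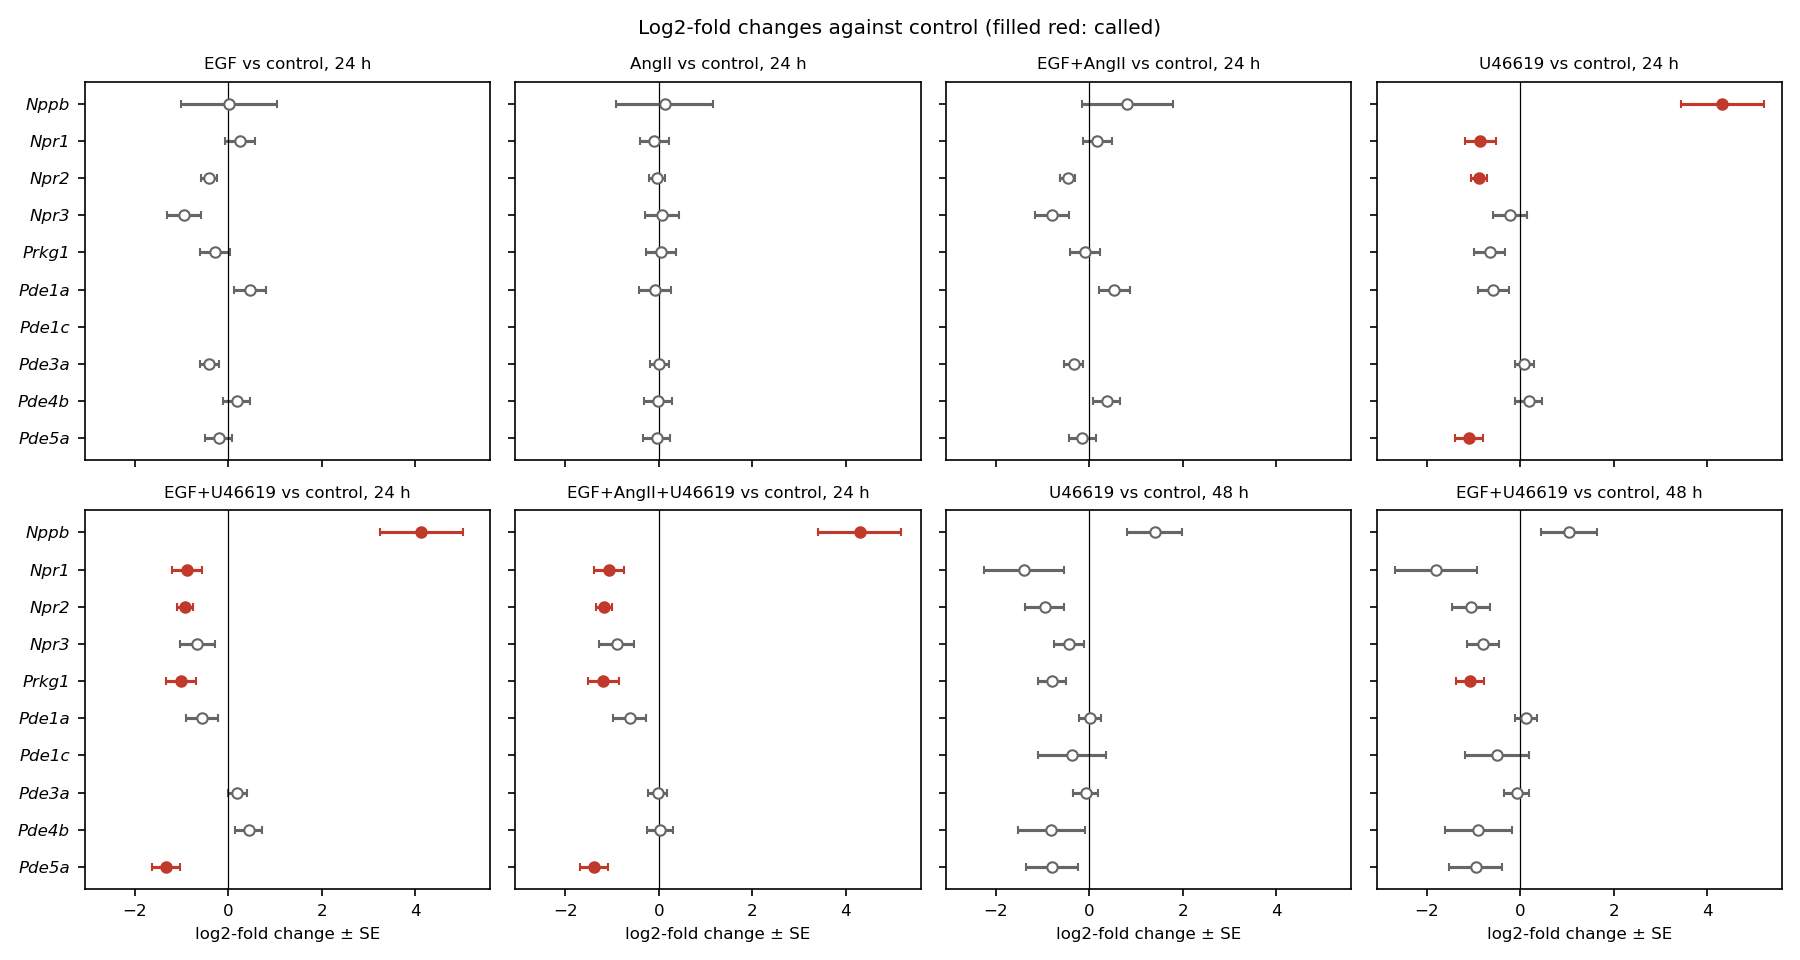
Log2-fold change against control with its SE for each member (vertical axis) in the 6 comparisons after 24 h and the 2 comparisons with U46619 after 48 h; filled red points were called. U46619 and its combinations with EGF and AngII carry red points after 24 h (Nppb at 4.33, 4.13 and 4.29), EGF, AngII and EGF+AngII carry none, and Prkg1 with EGF+U46619 (-1.07) is the red point after 48 h.

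After 48 h Npr2, Prkg1 and Pde5a were lower than control in 5 of 5 sets with U46619 and with EGF+U46619. These sets carry 4 mouse numbers, and few of the differences were called. With the mouse number of the labels as the block, U46619 changed 0 of the 10 members (background 3.7%), with 3 members at an unadjusted p under 0.05 in each tool (21.9% of all genes in edgeR), and EGF+U46619 changed 1 (background 6.3%). That member was Prkg1, at 52.2, 34.2, 30.5, 23.8 and 39.2 FPM in the controls of sets B1-1 to B1-5 and at 41.0, 19.6, 21.6, 13.7 and 14.6 FPM with EGF+U46619. It was lower in 5 of 5 sets, with a log2-fold change of -1.07 (SE 0.30, FDR 0.0245 in edgeR and 0.00560 in DESeq2). Without the library that stood apart the log2-fold change was -0.95 (SE 0.29, edgeR FDR 0.0409) and Prkg1 was still called (background 5.84%), while U46619 alone still changed 0 members (background 3.48%). The call was lost without set B1-2, B1-3 or B1-5 (log2-fold changes -1.11, -1.17 and -0.96) and in the EGF/U46619 batch alone (-0.73, SE 0.35, edgeR FDR 0.165). EGF, AngII and EGF+AngII changed 0 of 10 members each after 48 h, with a background of 0% and 0 members at an unadjusted p under 0.05 in either tool. These counts of 0 stayed at 0 without the library that stood apart and with the culture set as the block. Adding EGF to U46619 or AngII to EGF changed 0 of 10 members after 48 h (background 0%, 0 at an unadjusted p under 0.05 in either tool). U46619 and EGF+U46619 against EGF changed 0 of 10 as well (backgrounds 2.96% and 4.43%), with 1 and 2 members at an unadjusted p under 0.05 in edgeR (19.3% and 21.2% of all genes) and 2 and 3 in DESeq2.

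Deviations from the group means correlated over 0.1 in 57 of 60 pairs of libraries of the same culture set. This held for 72 of 146 pairs that share a mouse number across sets and for 88 of 444 pairs with different mouse numbers. With the culture set as the block more members were called. U46619 then changed 1 of 10 (background 9.79%), Prkg1 at -0.55 (SE 0.18, edgeR FDR 0.0432), and EGF+U46619 changed 2 (background 13.7%), Prkg1 at -0.83 (SE 0.18, edgeR FDR 0.00210) and Pde5a at -0.86 (SE 0.28, edgeR FDR 0.0338). When the library that stood apart was also left out, 3 members were lower with U46619 (background 14.6%): Npr2 at -0.34 (SE 0.08, edgeR FDR 0.00311), Prkg1 at -0.50 (SE 0.16, edgeR FDR 0.0268) and Pde5a at -0.73 (SE 0.18, edgeR FDR 0.00359). The same 3 were lower with EGF+U46619 (background 18.7%), at -0.44 for Npr2, -0.77 for Prkg1 and -0.95 for Pde5a. In the EGF/U46619 batch alone the mouse number was again the block. There 0 members were called with U46619 (background 9.74%), where the lowest edgeR FDR, that of Pde5a, was 0.101. Pde5a was called with EGF+U46619 (background 13.6%) at -0.87 (SE 0.25, edgeR FDR 0.0227).

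The levels in the sets show what these fits rest on. Npr2 was at 234, 100.2, 103, 100.2 and 102 FPM in the controls of sets B1-1 to B1-5 and at 158.9, 71.2, 87.4, 93.8 and 79.7 FPM with U46619. It was lower in each set, at a log2-fold change of -0.96 with the pooled controls (SE 0.41, edgeR FDR 0.167) and -0.56 without the library that stood apart (SE 0.34, edgeR FDR 0.363). Pde5a went from 46.9, 26.2, 21.7, 21.9 and 8.05 FPM to 28.5, 19.7, 10.7, 17.2 and 5.24 FPM, again lower in each set. Npr1 differed between settings: its log2-fold change with U46619 was -1.41 with the pooled controls, -0.65 without the library that stood apart, -0.09 with the culture set as the block and 0.14 with both, and it was called in none of them. In the sets themselves Npr1 was at 12.4, 1.52, 2.92, 2.74 and 1.22 FPM in control and 16.7, 1.61, 2.54, 3.43 and 1.27 FPM with U46619, higher in 4 of 5. Its pooled controls reach 58.2 FPM in the EGF/AngII batch, where the endothelial sum reached 1142 FPM, and the part of that difference in the pooled fold change was not tested.

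Nppb stayed low after 48 h. It was at 0.466, 1.39, 0.382, 1.21 and 0.0763 FPM in the controls of sets B1-1 to B1-5 and at 0.731, 1.52, 2.51, 3.96 and 0.142 FPM with U46619. Each set was higher with U46619, sets B1-3 and B1-4 clearly and the other 3 by little. The log2-fold change was 1.39 (SE 0.59, edgeR FDR 0.156), without the library that stood apart 1.49, and with the culture set as the block 1.20 (SE 0.40, FDR 0.0444 in edgeR and 0.0395 in DESeq2), under the minimum of 5 FPM in each case. With EGF+U46619 set B1-5 was level with its control, with 2 fragments in each, and the other 4 sets were at 0.482 to 2.67 FPM, of which B1-1 (10 fragments against 12 in its control) was higher only after scaling. The 2 times were scaled separately, so the 24 h and 48 h values stand side by side without a test.

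The other 5 members were not called with U46619 or EGF+U46619 after 48 h. Npr3 was at 186.3, 43.5, 282, 246 and 440.2 FPM in the controls of sets B1-1 to B1-5 and at 100.4, 91.9, 225, 94.5 and 190 FPM with EGF+U46619. It was lower in 4 of 5 sets and higher in B1-2, the set with the lowest control. The log2-fold change was -0.79 (SE 0.34, edgeR FDR 0.138), or -0.85 without the library that stood apart, and without set B1-2 it was -1.21 and Npr3 was called. Pde1a (8.18 to 41.9 FPM with U46619), Pde3a (34.7 to 129 FPM) and Pde4b (4.88 to 46.5 FPM) had sets on both sides of control, with log2-fold changes of 0.02, -0.08 and -0.82. Without the library that stood apart these were -0.13, 0.13 and -0.35, and for Pde4b, which was far higher in that library than in its set, -0.02 with the culture set as the block as well. Pde1c reached 0.930 FPM at most after 48 h, with 8 of 40 libraries at 0.

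**Figure D4:**
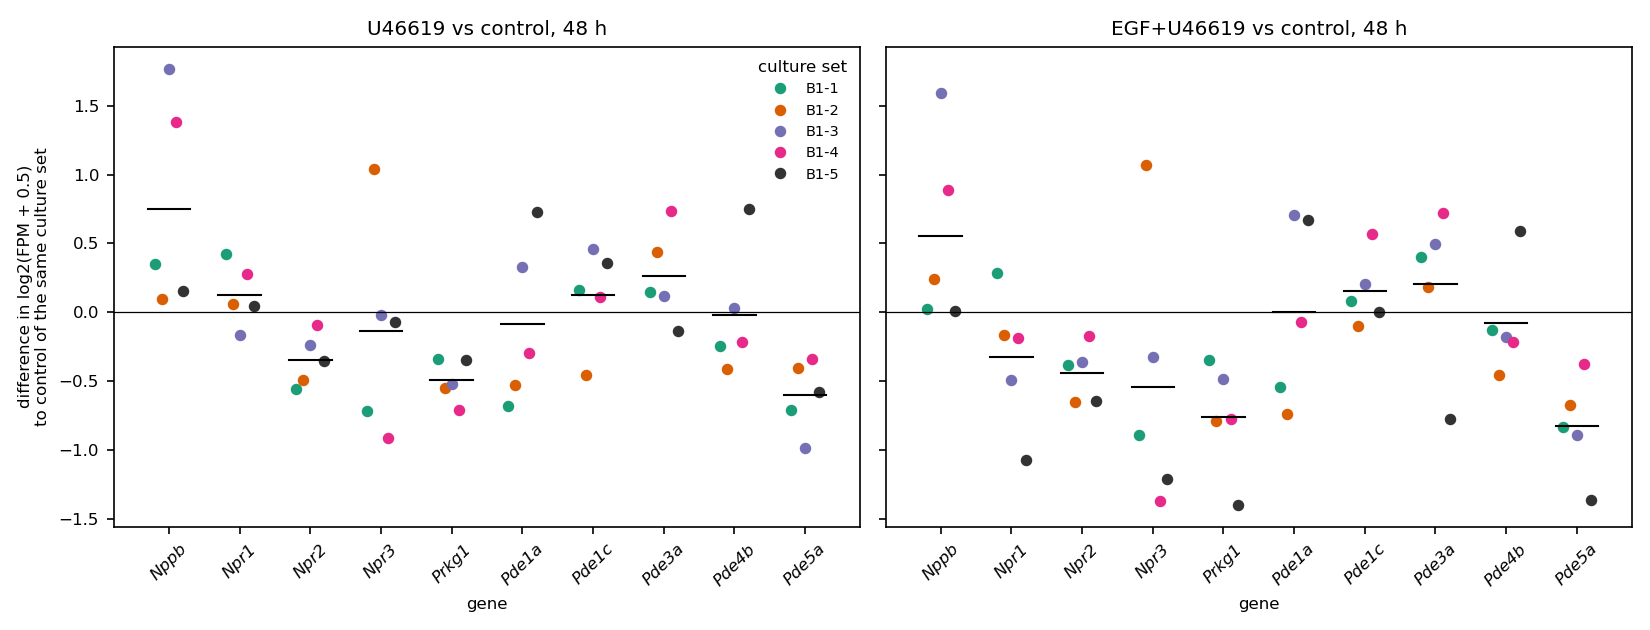
Difference in log2(FPM + 0.5) between each treated culture and the control of its own set after 48 h, for U46619 (left) and EGF+U46619 (right), with 1 point per culture set and the mean as a bar. Npr2, Prkg1 and Pde5a lie below 0 in 5 of 5 sets in both panels and Nppb lies at or above 0, while Npr3, Pde1a and Pde4b lie on both sides.

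The other genes of the pathway were read from 5 lists of 78 genes, and their counts are to be read against the shares of all genes called in the same comparisons (after 24 h 27.6% for U46619 and 33.1% for EGF+U46619, after 48 h 3.7% and 6.3%). Of the other phosphodiesterases, 11 could be tested after 24 h, of which 2 rose and 0 fell with U46619 (median log2-fold change -0.13, against -0.06 over all genes). These were Pde4d, which hydrolyses cAMP (0.68, SE 0.19, edgeR FDR 0.00589, higher in 5 of 6 mice), and Pde1b, a calmodulin-activated relative of Pde1a (0.84, SE 0.30, edgeR FDR 0.0301, higher in 6 of 6). With EGF+U46619 Pde4d alone was called (0.92, SE 0.19). After 48 h Pde8b, a cAMP phosphodiesterase, was higher with U46619 (1.16, SE 0.33, edgeR FDR 0.0345) and with EGF+U46619 (1.06, SE 0.33, edgeR FDR 0.0391), in 5 of 5 sets each, and was still called without the library that stood apart (1.04 and 0.94). No tested phosphodiesterase outside the members was called lower in these 4 comparisons, and with all 3 agonists after 24 h 2 were higher and 1 lower. Pde4a lies on chromosome 9, which is listed at 0, and so could not be tested. The same holds for Gucy1a2 and Prkar2a in the lists below.

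Of the natriuretic peptides and their processing enzymes, 6 were tested after 24 h and 1 rose with U46619, Ide, a protease that degrades natriuretic peptides and insulin (0.35, SE 0.11, edgeR FDR 0.0124, higher in 6 of 6 mice, from 65.8 ± 8.52 to 84.1 ± 11.3 FPM). It rose with EGF+U46619 as well (0.36, SE 0.11) and with U46619 after 48 h (0.34, SE 0.10, edgeR FDR 0.0375), a call that was lost without the library that stood apart (0.30, edgeR FDR 0.0614).

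Among the genes of cGMP synthesis and action, 10 were tested after 24 h, of which 2 rose and 2 fell with U46619 (median -0.41). Gucy1a1, a subunit of the guanylyl cyclase that nitric oxide activates, fell from 5.01 ± 4.85 to 1.51 ± 1.57 FPM (log2-fold change -1.75, SE 0.43, edgeR FDR 0.00217, lower in 6 of 6 mice). Rgs2, a G protein regulator that the cGMP kinase acts on, fell from 8.68 ± 10.7 to 3.62 ± 5.30 FPM (-1.50, SE 0.37, edgeR FDR 0.00213, lower in 6 of 6). Those that rose were Vasp, an actin regulator and substrate of the kinase (0.57, SE 0.14), and Prkg2, the gene of the second cGMP-dependent kinase, from 4.80 ± 7.56 to 12.4 ± 11.7 FPM (1.91, SE 0.60, edgeR FDR 0.0133, higher in 6 of 6). Prkg2 passed the minimum of 5 FPM only through its U46619 group, so it could only be called higher. Gucy1a1 and Rgs2 passed it only through control. The other kinase gene, Prkg1, stood below control with U46619 (-0.65) but was not called. EGF+U46619 raised Vasp and Prkg2 as well (Prkg2 at 2.93, SE 0.62). It lowered 3, Gucy1a1 (-2.49, SE 0.46), Rgs2 (-1.64, SE 0.37) and Mrvi1, an anchor of the cGMP kinase at the calcium store (-0.72, SE 0.22). After 48 h 0 of 12 were called with U46619, with 5 at an unadjusted p under 0.05 in each of edgeR and DESeq2, and with EGF+U46619 Prkg2 was higher (1.47, SE 0.35) and Gucy1a1 (-2.40, SE 0.77) and Rgs2 (-1.01, SE 0.32) were lower. Without the library that stood apart these were 1.65, -2.51 and -1.15 and still called, and Rgs2 was then also called with U46619 (-1.11, SE 0.31, edgeR FDR 0.0329).

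On the cAMP side 24 genes of synthesis and action were tested after 24 h, of which U46619 raised 1 and lowered 7 (median -0.27). The one that rose was the adenylyl cyclase Adcy7 (1.11, SE 0.32, edgeR FDR 0.00800, higher in 6 of 6 mice), and it was also higher after 48 h with U46619 (1.19, SE 0.35) and EGF+U46619 (1.57, SE 0.34). Without the library that stood apart the former call was lost (1.10, edgeR FDR 0.0617) and the latter stayed (1.47). Among those that fell were the cyclases Adcy5 (-0.88, SE 0.31), Adcy3 (-0.69, SE 0.25) and Adcy6 (-0.49, SE 0.18), the cAMP-activated exchange factor gene Rapgef3 (-1.02, SE 0.21, edgeR FDR 0.000386, lower in 6 of 6) and the regulatory kinase subunit gene Prkar1b (-0.89, SE 0.24). EGF+U46619 raised 2 and lowered 5, among them Adcy5 (-1.58, SE 0.32), Rapgef3 (-0.96, SE 0.21), Prkar1a (-0.27, SE 0.10) and the kinase inhibitor gene Pkig (-0.64, SE 0.25). Of 7 genes known to respond to cAMP, 1 was called, Nr4a2, a nuclear receptor gene, which rose with U46619 (0.75, SE 0.17, edgeR FDR 0.00100) and EGF+U46619 (1.12, SE 0.17) and did so again after 48 h (0.81 and 0.94, or 0.90 and 1.02 without the library that stood apart). EGF, AngII and EGF+AngII gave 0 calls in each of the 5 lists at both times. At an unadjusted p under 0.05 in edgeR the lists held 0 to 3 genes with EGF, 0 with AngII and 0 to 7 with EGF+AngII after 24 h, and 0 or 1 in each of these after 48 h (in DESeq2 0 to 3, 0 and 0 to 8 after 24 h, and 0 or 1 after 48 h).

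Markers of other cell types moved in the same comparisons. The 4 fibroblast markers (Pdgfra, Dcn, Lum, Col14a1) summed to 379 to 2869 FPM in control (median 641) and 140 to 1741 FPM with U46619 (median 293), 3 of them lower, and 4 of 4 were lower with EGF+U46619. Of the 4 smooth muscle markers tested, 2 were higher with U46619, and the summed smooth muscle level went from a median of 2610 to 11970 FPM. That sum was mostly Acta2, with a median of 3341 FPM over the 24 h libraries. Smtn, Lmod1 and Myh11 had medians of 119.9, 92.19 and 29.45 FPM. The median log2-fold change of the 4 tested markers with U46619 was 0.57. Both adipocyte markers were lower, with a summed level in control that had a median of 1.29 FPM and a highest value of 849 FPM. The macrophage sum had medians of 73.0 FPM in control and 34.8 FPM with U46619, with 1 marker higher and 1 lower of 2 tested. It was carried by Lyz2 and Csf1r, while Ptprc and Adgre1 reached at most 0.0541 and 0.133 FPM in any 24 h library. The part of these markers in the fall of Npr1, Npr2, Prkg1 and Pde5a was not tested.

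The genes whose levels ran most like each called member were found by correlating log2(FPM + 0.5), centred within each mouse, over the 42 libraries of 24 h with 14652 other genes. These libraries share the treatments, so the values describe a common pattern and carry no test. For Nppb they were Adora2b, an adenosine receptor gene coupled to cAMP (r = 0.91), Spred3 (0.91) and Lce1h (0.91), and the most opposite gene was Lpin1 (-0.93). For Npr2 they were Slc4a3, Mettl7a1 and Cul9 (0.96 each), with Lyar opposite (-0.97), and for Npr1 Agap2 (0.88), St6gal1 (0.88) and Wdr66 (0.87), with Zcchc10 opposite (-0.84). For Prkg1 they were Atp2b4, a calcium pump gene of the plasma membrane (0.93), X2610008E11Rik (0.90) and Lrrc75b (0.89), with Npm3 opposite (-0.89). For Pde5a they were Cyp1b1 (0.92), Afap1l2 (0.91) and Pag1 (0.91), with Mcfd2 opposite (-0.93). Among the members themselves, Prkg1 and Pde5a ran together (0.84), as did Npr1 and Npr2 (0.68), while Nppb ran against Pde5a (-0.78) and Pde1a against Pde3a (-0.62).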

How the data were processed

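RNA was measured by poly(A) paired-end sequencing in 82 libraries of cultured mouse aVSMC. Per the authors' methods, HISAT2 2.1.0 placed the reads on mm10 and featureCounts counted them per gene, multi-mapping reads included, and the authors deposited raw counts per gene in 3 files, so genes that share reads with a related or overlapping copy are uncertain. A strand setting was not given in the sources used here. Genes on chromosomes 9, X, Y and MT (7075) are listed at 0, and every column could be assigned to a library.

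From these counts, edgeR 4.0.16 (quasi-likelihood test, TMM scaling, filterByExpr) and DESeq2 1.42.0 (Wald test) were fitted in R 4.3.3 over all genes, separately for 24 h and 48 h, with mouse and treatment as terms and Benjamini-Hochberg adjustment. A call needed an FDR under 0.05 in both, a mean of 5 FPM in 1 of the groups compared, and the filter passed at both times. FPM used library totals of the genes tested. SEs were derived from the edgeR statistic. Tables and figures were made with Python 3.11.15, NumPy 2.4.6, pandas 2.3.3 and Matplotlib 3.10.9. The test was checked on counts simulated for control and U46619 only, after 48 h for the EGF/U46619 batch alone. That check does not cover the fits of all groups or the pooled 48 h controls. Depth was 16483529 to 20818809 counts per library after 24 h and 19936925 to 33916114 after 48 h, which limits precision for Nppb and Pde1c above all. The study's methods give each replicate its own mouse, whereas the labels give the 10 culture sets of 48 h only 5 mouse numbers. The mouse number is the block of the main 48 h fit and the culture set that of an alternative, and if sets share a mouse, p-values measure in part the spread between its cultures.

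The members and lists were chosen with earlier results of these data known. All 10 members are named, along with up to 8 genes per list that were called with U46619 or EGF+U46619 (smallest edgeR FDR), and for each member called after 24 h the 3 most and the 1 least correlated genes. After 24 h the mouse pairs the libraries: deviations from group means correlated over 0.1 in 126 of 126 pairs of the same mouse (median 0.776). After 48 h this held for 57 of 60 pairs of the same culture set, and the 3 exceptions all involve the control of set B2-4. Alternatives covered the tool, the scaling, the filters, the FPM minimum, the block, the samples fitted and each mouse or set left out. Leaving out the control of set B2-4 was chosen after seeing the data. Promoter sequences are from RefSeq (GRCm38.p6), and exon lengths are unions of annotated exons.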

Additional observations from a re-analysis of the deposited data

Results flagged for a closer look

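Of 130 groups of a member's levels, 33 held a highest or lowest library that stood further from its neighbour than Dixon's 95% limit for the group's size. Chance would flag about 1 group in 20 if the groups were independent and their levels normally distributed. The same mice recur across groups, so 33 of 130 cannot be read as an excess over that rate.

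After 24 h most of these were mouse 6. It was the highest library for Npr1 in all 7 groups, at 54.2 FPM in control, 48.1 with EGF, 61.2 with AngII, 41.1 with U46619, 50.9 with EGF+AngII, 55.9 with EGF+U46619 and 39.4 with EGF+AngII+U46619. It was highest for Npr2 in control (205 FPM), with U46619 (133 FPM) and with EGF+U46619 (209 FPM). For Pde4b it stood at 102 FPM in control, 85.7 with AngII, 78.6 with U46619, 99.2 with EGF+U46619 and 76.0 with EGF+AngII+U46619. Mouse 6 was also highest for Prkg1 with EGF+AngII+U46619 (42.1 FPM) and for Pde1c in control (0.656 FPM) and with AngII (0.141 FPM). This mouse had the highest endothelial (1268 FPM) and adipocyte (849 FPM) marker sums in control, whose part in these levels was not tested.

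Mouse 2 was the highest library for Nppb with U46619 (34.9 FPM), EGF+U46619 (28.4 FPM) and EGF+AngII+U46619 (33.4 FPM), while its Nppb control was at 0. Mouse 3 was the lowest control for Pde3a (26.9 FPM).

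After 48 h set B1-1 was highest with U46619 for Npr1 (16.7 FPM) and Npr2 (158.9 FPM), and with EGF+U46619 for Npr1 (15.2 FPM), Npr2 (178.7 FPM) and Prkg1 (41.0 FPM). The Npr1 control of set B2-1 was at 58.2 FPM. Npr2 with EGF was at 459 FPM in set B2-2. Set B2-4 stood at 651 FPM for Npr3 with EGF and at 43.3 FPM for Pde1a with AngII. For Nppb, set B1-4 with EGF (1.42 FPM) and set B2-1 with EGF+AngII (1.55 FPM) were the highest of their groups.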

How the results depend on the processing

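The count of members called after 24 h was 4 with U46619, 5 with EGF+U46619 and 5 with EGF+AngII+U46619. It kept within 1.5 times of these values with either tool alone, without the FPM minimum, with DESeq2's size factors, with the likelihood ratio test, with no filter on low counts and with only the groups compared. A minimum of 10 counts in every library left 4 members to be tested and gave 1, 1 and 2 calls. Without the replicate block 1 member remained called in each (Nppb). Leaving out each mouse in turn gave 2 to 4, 2 to 6 and 4 to 7 calls, with the fewest for U46619 and EGF+U46619 without mouse 2. The genes called over the whole table moved in the same fits: with U46619 they were 4044 of 14653 in all, 2512 to 4635 when each mouse was left out and 1037 without the block.

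After 48 h the counts were 0 with U46619 and 1 with EGF+U46619. The culture set as the replicate block gave 1 and 2 calls, and 3 and 3 when the control of set B2-4 was also left out. With EGF+U46619 there were 0 calls with no replicate block, with only the groups compared and with mouse and batch as terms, and 0 to 1 when each set was left out. The cause of these differences was not tested. No member's fold change that was called in any setting turned its direction. EGF, AngII and EGF+AngII kept 0 calls at both times in all alternatives run. Depth limits Nppb, with 0 to 13 fragments in a 24 h control library, and Pde1c, with 0 to 17 over all 24 h libraries.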
